A study of Mus musculus with 8 samples.

Results

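Partly modified adenines are called N6-methyladenine sites at which the deposited modified fraction, the share of the molecules estimated to carry the mark, is below 0.5. They were chosen by measured values. A member had a deposited fraction below 0.5 and an identification score of 6 to 19, the caller's measure of how well a site fits N6-methyladenine, and lay outside 5 areas rich in satellite repeats. These areas were the unplaced contig JH584304, chromosome 9 from 3.0 to 3.1 Mb and from 35.3 to 35.31 Mb, chromosome 14 from 19.4 to 19.5 Mb and chromosome 2 from 98.6 to 98.7 Mb. The rule found 1175 members among 17418 called adenines in 4 lists, with 157 in KO L, 211 in WT L, 180 in KO S and 627 in WT S. They were set against 1619 nearly fully modified adenines, which had a fraction of 0.9 or more in the same list, the same identification range and the same parts of the genome.

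The DNA came from TT2 mouse embryonic stem cells on a C57BL6 x CBA background at passage 5 to 10, grown without feeder cells. The 4 groups were Alkbh1 knockout cells (KO) and wild-type cells (WT), each with a long (L) and a short (S) part of the DNA, and all were precipitated as native chromatin with a customized antibody to the histone variant H2A.X. The labels assign the 2 replicates of each group to 1 shared list. The 8 samples therefore gave 4 lists, no value had a replicate check, and no p-value between lists could be computed. Whether the KO cells were a single clone is not given in the sources used here, and lists of called adenines hold no measure of Alkbh1 itself. No list of input or amplified DNA was analysed here.

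N6-methyladenine is a methylated base that is common in bacterial DNA and that has been described at low levels in mouse embryonic stem cells. ALKBH1 is a dioxygenase that has been described as removing it from DNA. In single-molecule real-time sequencing, a polymerase that copies a native DNA strand pauses at some modified bases, and the pause is reported as the ratio of the observed inter-pulse duration (IPD) to a predicted one. The modified fraction is an estimate from the spread of such pauses over the reads at a base, so its precision depends on the coverage.

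The sequences below are examples of members and of nearly fully modified sites, and so few pairs cannot show what separated both sets. For KO L, WT L and KO S the member with the lowest upper bound of its fraction above 0 was taken, a choice made after the values were seen and limited to the assembled chromosomes and to contexts without satellite words, together with the nearly fully modified site of the nearest coverage. Each is the strand of the call, 5′ to 3′, in mm10, and the capitals mark the called adenine and the base that follows it.
KO L member, chr1:132843095-132843135, plus strand: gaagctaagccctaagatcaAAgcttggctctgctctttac
KO L nearly fully modified, chr5:128004359-128004399, minus strand: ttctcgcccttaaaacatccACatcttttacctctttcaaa
WT L member, chr3:91550149-91550189, minus strand: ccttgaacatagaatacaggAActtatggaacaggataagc
WT L nearly fully modified, chr1:143708477-143708517, plus strand: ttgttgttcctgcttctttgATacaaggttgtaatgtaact
KO S member, chr9:88611402-88611442, plus strand: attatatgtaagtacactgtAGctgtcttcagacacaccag
KO S nearly fully modified, chr9:33132636-33132676, plus strand: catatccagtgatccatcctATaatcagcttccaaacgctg

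In 2 of these 3 pairs the member was followed by adenine, and in 2 of the 3 the nearly fully modified site was followed by thymine. The KO L member had a deposited fraction of 2.9% with bounds of 0 and 29.1%, and the WT L member one of 15.8% with bounds of 15.6 and 17.3%. The KO S member, in the lncRNA gene Gm26567, had a fraction of 3.2% with bounds of 0 and 29.9%. The IPD ratios of these members were 2.25, 1.66 and 1.64 in this order. Those of the paired nearly fully modified sites were 3.69, 5.5 and 1.5, so in KO S the member had the higher ratio. The paired KO S site was listed at a fraction of 100% with both bounds at 100%. Coverage was 23 at both KO L sites and 18 at both WT L sites. In KO S it was 45 at the member and 34 at the nearly fully modified site.

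The members made up about 1 in 4 of the sites they were drawn from, with 24.0% of the 4891 sites that had a fraction, the same identification range and the same parts of the genome. The share was 23.9% of 658 sites in KO L, 22.7% of 928 in WT L, 20.3% of 887 in KO S and 25.9% of 2418 in WT S. The fraction, which chose the members, had a median of 36.2% in KO L, 37.1% in WT L, 37.1% in KO S and 35.8% in WT S. Over the 4 lists the middle 50% of members lay between 25.6 and 43.7%, and 455 of the 1175 were at 40% or more. The median IPD ratio was 2.04 in the members and 3.08 in the nearly fully modified sites, and the median coverage was 20 in the members and 13 in the nearly fully modified sites. The deposited modification score of the calls had a median of 23 in the members and 28 in the nearly fully modified sites, with 20 the lowest in both. Only 134 of the 1175 members had a score of 30 or more, and the sets were not matched on this score.

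**Figure D1:**
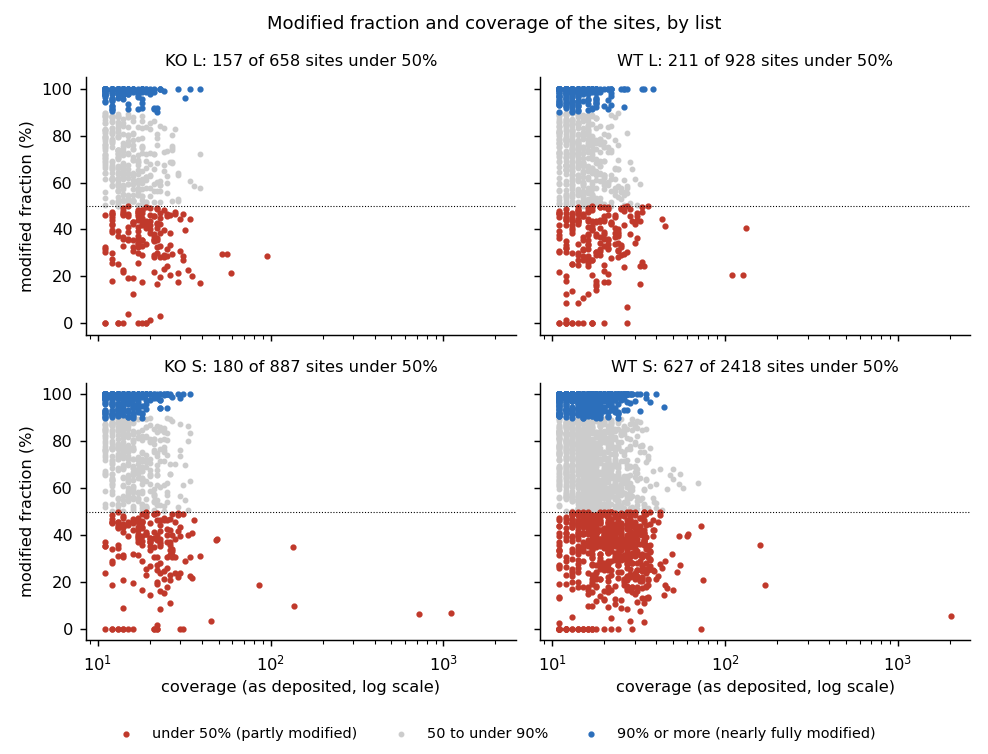
Modified fraction (percent, vertical axis) against deposited coverage (horizontal axis, log scale) of every site with an identification score of 6 to 19 outside the satellite areas, in 1 panel per list. Red points are the partly modified sites, 157 in KO L, 211 in WT L, 180 in KO S and 627 in WT S, blue points the nearly fully modified ones, and the dotted line is the limit of 50%; no blue point lies at a coverage of 51 or more.

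The deposited bounds were wide, and most members were not bounded below 50%. The upper bound was below 50% in 174 members (14.8%, exact 95% interval 12.8 to 16.97%). It stood at 100% in 112 members, and the lower bound was 0 in 629 (53.5%). In 77 members the fraction and both bounds were listed at 0. An exact 0 can be a failed estimate, and the IPD ratios of these 77 ran from 1.43 to 12.4 with a median of 1.86. All 146 sites listed at 0, over every identification score and area, had an upper bound of 0. The 174 members with an upper bound below 50% comprise these 77 and 97 with a fraction above 0. The bounds of the nearly fully modified sites were wide as well. Their lower bound had a median of 63.7%, the middle 50% of it lay between 46.25 and 92.55%, and the lowest was 0. Some of these sites were therefore not bounded above 50%.

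Just inside the limit, at fractions of 45 to under 50%, lay 241 members with a median IPD ratio of 2.23 and a median coverage of 18, and 67.6% of them were followed by adenine. Just outside, at 50 to under 55%, lay 244 sites with a median IPD ratio of 2.35 and a median coverage of 17, and 58.2% of them were followed by adenine. The limit cuts through a continuous range.

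The base 3′ of the called adenine, which the rule did not use, differed most between both sets. Adenine followed in 65.2% of the members (62.4 to 67.9%) and in 19.2% of the nearly fully modified sites (17.3 to 21.2%). Thymine followed in 11.3% of the members and in 43.0% of the nearly fully modified sites. Cytosine followed in 5.96% of the members and in 18.5% of the nearly fully modified sites, and guanine in 17.5% of the members and 19.3% of the nearly fully modified sites. These next-base results, apart from that on guanine, were chosen after the values were seen.

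At like coverage, within each list and 6 strata of coverage, the share followed by adenine was 44.8 points higher in the members (95% interval 40.97 to 48.6), and the share followed by thymine differed by -34.3 points (-37.8 to -30.8). The share followed by cytosine differed by -11.9 points (-14.6 to -9.25). For guanine the difference was 1.48 points (-1.76 to 4.71), an interval that holds 0, and without the match on coverage it turned to the other side, at -1.80 points. Without sites in runs of 4 or more adenines it was 6.98 points (2.96 to 10.99), and that interval left out 0. These intervals cover counting error only and treat sites as independent, although some share a locus.

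The 4 lists moved alike for adenine and thymine. Adenine followed 68.2% of members and 21.03% of nearly fully modified sites in KO L, a difference of 47.8 points at like coverage. In WT L it followed 72.0% of members and 17.8% of nearly fully modified sites, a difference of 54.7 points. In KO S the shares were 54.4% of members and 18.1% of nearly fully modified sites, a difference of 36.7 points, and in WT S they were 65.2% of members and 19.8% of nearly fully modified sites, a difference of 42.8 points. All 4 intervals for adenine lay above 0 and all 4 for thymine lay below 0.

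**Figure D2:**
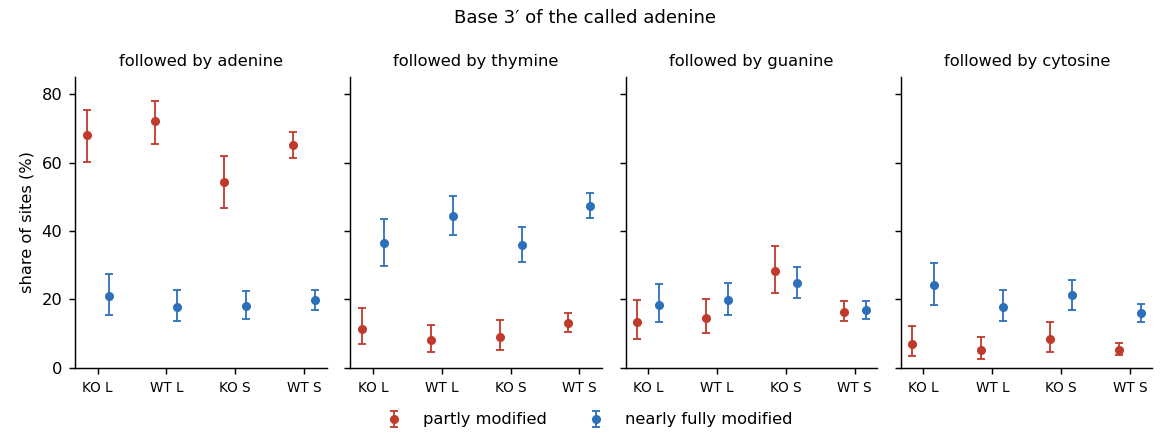
Share of sites (percent, vertical axis) whose called adenine is followed by each base, with partly modified sites in red left of nearly fully modified sites in blue, for each of the 4 lists; bars are exact 95% intervals. Adenine follows 54.4 to 72.0% of the partly modified and 17.8 to 21.03% of the nearly fully modified sites, while thymine shows the opposite order in every list.

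The remaining adenines within the 41-base contexts gave the local level. In the members' contexts, adenine followed 45.7% of 15600 other adenines, against 65.2% of the called ones, and thymine followed 17.5% of the other adenines, against 11.3% of the called ones. In the contexts of nearly fully modified sites, adenine followed 34.7% of 18905 other adenines, against 19.2% of the called ones, and thymine followed 24.1% of the others, against 43.0% of the called ones. Both sets thus stood apart from their own surroundings, in opposite directions.

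The contrast was present in every stratum of coverage that could be compared. The members followed by adenine were 55% at coverage 11 to 12, 65.6% at 13 to 15, 64.5% at 16 to 20, 70.6% at 21 to 30 and 62.3% at 31 to 50. The nearly fully modified sites followed by adenine were 19.8%, 19.2%, 17.4%, 20.7% and 25% in the same strata, the last from 4 of 16 sites. In KO L alone at coverage 31 to 50 the order was the other way. There adenine followed 62.5% of 8 members and 66.7% of 3 nearly fully modified sites. At coverage of 51 or more there were 23 members and no nearly fully modified site, so these members entered no matched difference. The partly modified share itself went with coverage, from 10.5% of sites at coverage 11 to 12 through 24.1% at 16 to 20 to 85.2% at 51 or more.

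**Figure D3:**
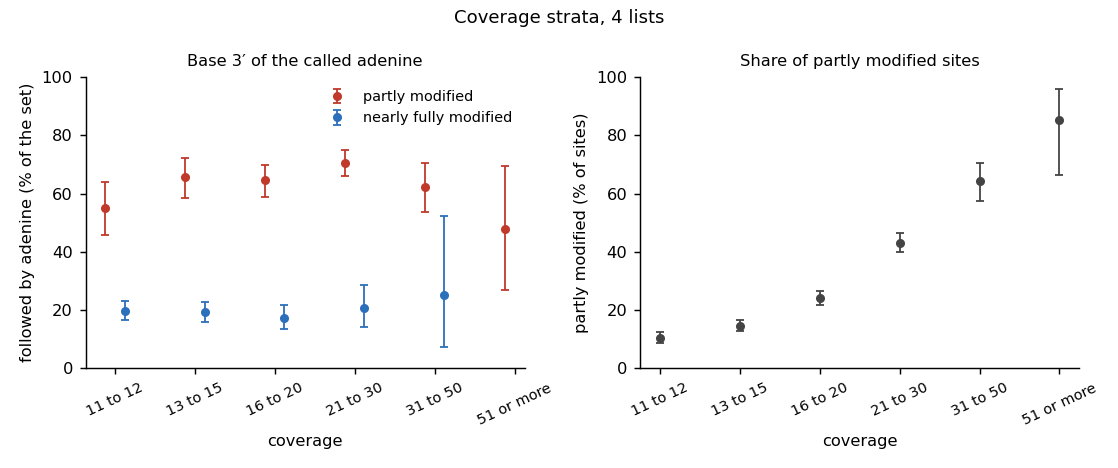
Left, share followed by adenine (percent) in partly modified (red) and nearly fully modified (blue) sites over 6 strata of coverage, 4 lists together; right, partly modified share of all sites in the stratum (percent). Bars are exact 95% intervals: the red points stay between 47.8 and 70.6%, the blue ones between 17.4 and 25%, and the partly modified share climbs to 85.2% at coverage of 51 or more.

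The next base changed by steps along the fraction and not only between its ends. Among sites of coverage 15 to 30, adenine followed 71.9% of those with a fraction of 20 to under 30%, 73.4% at 30 to under 40% and 65.5% at 40 to under 50%. It followed 52.3% at 50 to under 60%, 40.2% at 60 to under 70%, 31.4% at 70 to under 80%, 25.6% at 80 to under 90% and 18.3% at 90% and above. Thymine ran the other way, with 12.2% at 40 to under 50%, 21.5% at 60 to under 70%, 33.5% at 80 to under 90% and 49.0% at 90% and above. The 31 sites listed at 0 in this coverage range did not continue the series, since 38.7% of them (21.9 to 57.8%) were followed by adenine.

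**Figure D4:**
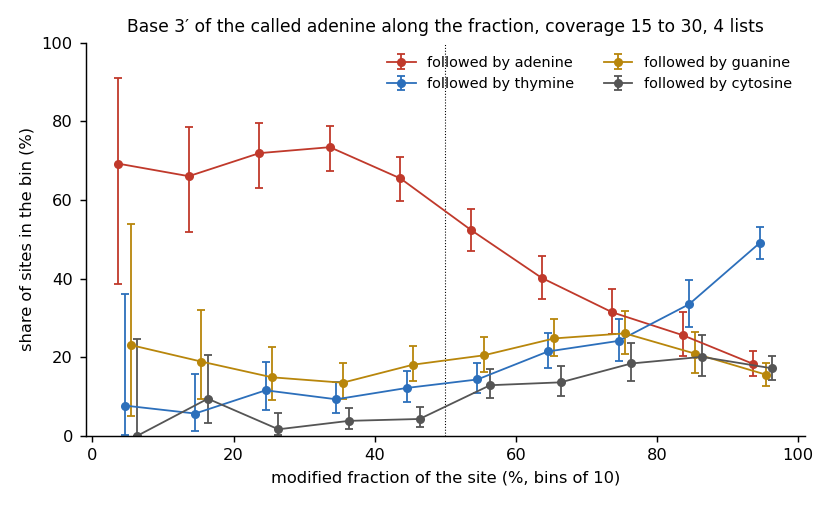
Share of sites followed by each base (percent, vertical axis) in bins of the modified fraction (percent, horizontal axis), for sites of coverage 15 to 30 in the 4 lists together, without sites listed at 0; bars are exact 95% intervals and the dotted line is the limit of 50%. The share followed by adenine stands at 73.4% at 30 to under 40% and at 18.3% at 90% and above, and the share followed by thymine at 9.28% and 49.0% in the same bins.

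The limit of 50% holds the members' fractions close together, and they are given by next base as a description. The median fraction was 36.8% in the 766 members followed by adenine, 35.5% in the 206 followed by guanine, 31.4% in the 70 followed by cytosine and 37.1% in the 133 followed by thymine. An upper bound below 50% was given for 12.3% of the members followed by adenine, 17.5% of those followed by guanine, 32.9% of those followed by cytosine and 15.8% of those followed by thymine. These shares count the members listed at 0, of which 29 were followed by adenine, 19 by guanine, 15 by cytosine and 14 by thymine. With a fraction above 0, an upper bound below 50% was given for 65 members followed by adenine, 17 by guanine, 8 by cytosine and 7 by thymine. Of the 97 members with a fraction above 0 and an upper bound below 50%, 67.0% (56.7 to 76.2%) were followed by adenine, and of the 1001 others above 0 it was 67.1% (64.1 to 70.0%). Of the 77 members listed at 0 it was 37.7% (26.9 to 49.4%), and 18.2% of these were followed by thymine. The intervals of the sites listed at 0 and of the other members do not overlap for adenine.

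Base composition differed beyond the next base, mostly on the 3′ side. Of the 160 differences of a base at a position within 20 bases of the call, 55 had an interval that left out 0. These comprised 25 of the 32 at positions 1 to 8 on the 3′ side, 13 of the 32 at the 8 positions next to the call on the 5′ side, 11 of the 48 farther on the 3′ side and 6 of the 48 farther on the 5′ side. At position 3 on the 3′ side adenine stood in 46.0% of the members and 23.9% of the nearly fully modified sites, 23.7 points more at like coverage (19.7 to 27.8). At position 5 adenine was 17.98 points higher in the members (14.1 to 21.9) and thymine differed by -20.1 points (-23.9 to -16.4). At position 6 guanine was 12.4 points higher in the members (9.34 to 15.5), and at position 7 it differed by -17.6 points (-21.1 to -14.0). The 5 differences just named had the same sign in all 4 lists. On the 5′ side the base next to the call was adenine in 33.2% of the members and 21.2% of the nearly fully modified sites, 10.4 points more at like coverage (6.54 to 14.2).

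**Figure D5:**
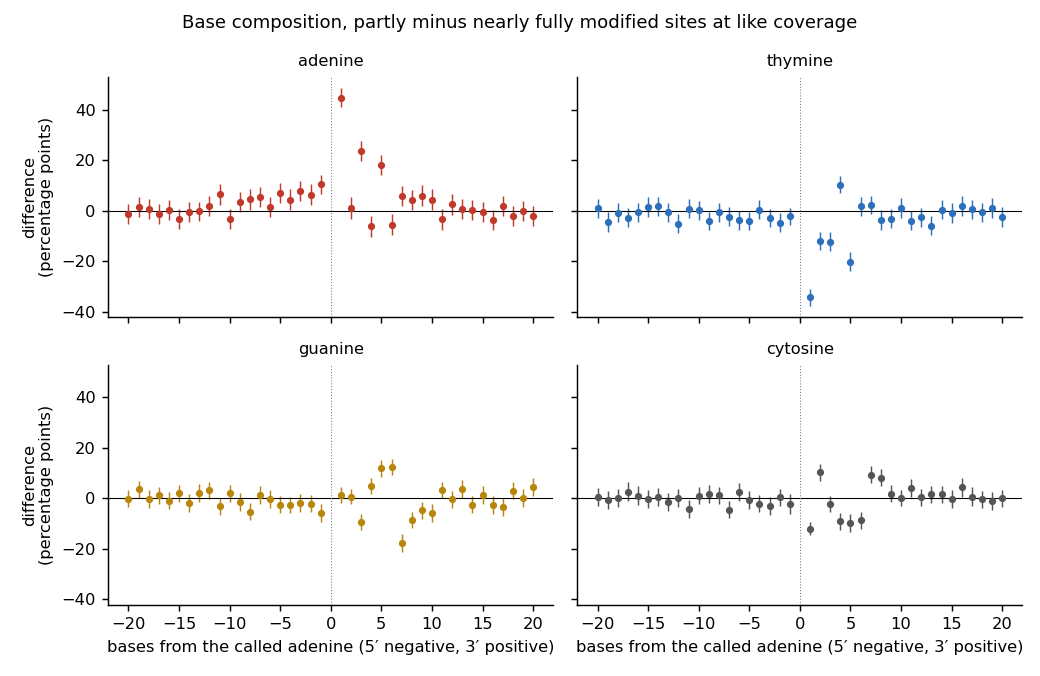
Difference in the share of each base between partly modified and nearly fully modified sites at like coverage (percentage points, vertical axis, bars are 95% intervals) at each of the 20 positions on either side of the called adenine (horizontal axis, 3′ positive), 1 panel per base. The largest differences are at position 1, with 44.8 points for adenine and -34.3 points for thymine, and most of the others past 10 points lie within 8 bases on the 3′ side.

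By triplet, with the called adenine in the middle, AAA held 311 members (26.5%) and 58 nearly fully modified sites (3.58%), a difference of 22.4 points at like coverage (19.3 to 25.4). TAA, CAA and GAA each differed by 7.02 to 8.09 points in the same direction, with intervals above 0. CAT stood at the other end, with 45 members (3.83%) and 240 nearly fully modified sites (14.8%), a difference of -11.2 points (-13.5 to -8.82). The guanine steps did not go together. CAG was higher in the members by 4.17 points (2.04 to 6.29), with 92 sites in each set, whereas GAG differed by -2.65 points (-4.25 to -1.06).

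The members lay in runs of adenines more often than the nearly fully modified sites. A run of 4 or more held 28.7% of the members and 7.54% of the nearly fully modified sites, 19.6 points more at like coverage (16.3 to 23.0), and runs of 7 or more held 11.8% of the members and 1.30% of the nearly fully modified sites. A lone adenine was called in 28.1% of the members and in 63.1% of the nearly fully modified sites. A member was more often at the 5′ end of a run of 2 or more, with 455 members (38.7%), than at its 3′ end, with 79 (6.72%), whereas the nearly fully modified sites numbered 253 (15.6%) at the 5′ end and 286 (17.7%) at the 3′ end. With every site in a run of 4 or more left out, the share followed by adenine was still 35.7 points higher in the members (31.3 to 39.99). Alignment can place a call in a long run on another adenine of the run, and the effect on these positions was not tested.

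Short tandem repeats gave a similar order. A stretch of 12 or more bases that repeats a unit of 1 to 4 bases lay in 10.6% of the members' contexts and in 4.32% of those of nearly fully modified sites, 6.86 points more at like coverage (4.47 to 9.25). The 10-base word AAAAAAAAAA, counted on either strand, was in 126 contexts of members (10.7%) and 24 of nearly fully modified sites (1.48%). Repeats of a 4-base unit with thymine went the other way, by an amount that differed between the words of the same repeat. TAAATAAATA was in 2 contexts of members and 18 of nearly fully modified sites, and ATAAATAAAT in 5 and 22. The gap was smaller for AAATAAATAA, with 10 (0.85%) and 20 (1.24%), and for AATAAATAAA, with 11 (0.94%) and 23 (1.42%). The dinucleotide repeat ACACACACAC was in 0 of the members' contexts and 13 of the others. The words were taken as the most common ones in either set, so their counts are a description.

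Other features of the context differed little or not beyond counting error. The GC content of the 41 bases averaged 39.1% in the members and 40.1% in the nearly fully modified sites, a difference of -0.63 points at like coverage (-1.66 to 0.40). Without sites in runs of 4 or more adenines it turned to 2.05 points (0.97 to 3.13). It did not go the same way in all lists, with -4.65 points in KO L (-7.81 to -1.49) and 3.46 points in KO S (0.96 to 5.96). A CpG dinucleotide lay in 30.04% of the contexts of members and 30.02% of those of nearly fully modified sites. The plus strand held 49.4% of the members and 51.02% of the nearly fully modified sites, and that difference had an interval that holds 0. Contexts that share 3 or more 12-base words with calls in the excluded satellite areas made up 23 of the 1175 members (1.957%) and 0.93% of the nearly fully modified sites, so the exclusion by area did not remove every satellite-like sequence.

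The members had another call nearby more often, although not in every list or under every setting. Another call of the same list within 10 bases was found for 187 members (15.9%) and 131 nearly fully modified sites (8.09%), and within 200 bases for 45.02% of the members and 24.4% of the nearly fully modified sites. At like coverage the difference was 3.01 points within 10 bases (0.33 to 5.69) and 10.7 points within 200 bases (6.65 to 14.7). Within 200 bases the interval held 0 in KO L, at 10.2 points (-0.66 to 21.1), and in WT L, at 4.46 points (-4.40 to 13.3). Within 10 bases the interval held 0 in KO L, WT L and KO S taken singly, and without WT S the difference was 0.63 points (-3.01 to 4.27). It also held 0 with 1 site per kb, at 1.49 points, and within 5 bases, at 0.53 points. Without sites in runs of 4 or more adenines it turned to -1.26 points (-3.95 to 1.42).

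Without a match on coverage, the neighbours of the members were partly modified themselves more often than those of the nearly fully modified sites. Of the 187 members with a call within 10 bases, the nearest call had a fraction under 50% in 109 (58.3%, 50.9 to 65.4%) and of 90% or more in 22 (11.8%). For the 131 nearly fully modified sites it was under 50% in 15 (11.5%, 6.55 to 18.2%) and 90% or more in 61 (46.6%). The nearest call lay on the same strand for 157 of the 187 members (84.0%) and 95 of the 131 nearly fully modified sites (72.5%), and it was the adjacent base of that strand for 41 members (21.9%) and 15 nearly fully modified sites (11.5%). Such neighbours can share reads and coverage, and the partly modified share itself went with coverage. Median coverage was 20 in the members and 13 in the nearly fully modified sites. A pair of members that are each other's nearest call counts for both. Of the 187 members, 155 (82.9%, 76.7 to 88.0%) were followed by adenine.

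Sites followed by thymine have an adenine facing them on the other strand, at which both strands can carry the mark. Both strands were called at 0 of the 133 members followed by thymine, which allows a share of up to 2.74% (exact 95% interval), and at 5 of the 696 nearly fully modified ones (0.72%, 0.23 to 1.67%).

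The members grouped by 1 kb into 1049 loci, of which 95 held 2 or more, with 221 members in these 95. They lay on all of chromosomes 1 to 19, X and Y, where their share of the sites ran from 17.2% on chromosome 19 to 27.5% on chromosome 8. Of the 23 sites on other contigs 10 were members (43.5%). Genes in the RefSeq table, from start to end, held 599 members (50.98%) and 50.4% of the nearly fully modified sites, a difference of 1.15 points at like coverage (-3.17 to 5.46). A window of 300 bases around a gene's start held 3 members, at Gar1, Ndel1 and Neu4, and 5 nearly fully modified sites. Exons were not analysed, and a site's place is given by gene alone.

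Members were spread over 545 genes, and 68 of these held 2 or more, and 11 of the genes with the most members are described. In 8 of these 11 genes all members lay within 144 bases or less, in a single list. Pcnx2 had 4 members, all in WT S. On chromosome 8, the 4 lay within 144 bases at 125826283 to 125826426 with coverage of 33 to 36 and fractions of 31.8, 28.2, 30.5 and 37.7%, and no nearly fully modified site was called in the gene.

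Garre1 and Tiam2, which encodes an exchange factor for the GTPase RAC1, were the only ones of these 11 genes with members in KO S, with 3 members each. The other 9 genes had theirs in WT S, the list that held 627 of the 1175 members. In Garre1 the 3 members on the minus strand within 44 bases of chromosome 7 had the same coverage of 23 and fractions of 37.1, 44.3 and 35.4%. In Tiam2 the 3 members within 129 bases of chromosome 17 had fractions of 0, 21.5 and 22.5%. Slu7, which encodes a splicing factor, had 3 members within 55 bases of chromosome 11, all followed by adenine, with fractions of 49.4, 43.3 and 0%.

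The called strand at 3 of these loci shows the members of that strand beside each other. No repeat annotation was used. Whether these stretches, or the members in runs of adenines, lie in interspersed repeats such as SINE or LINE elements was not looked up. Capitals mark the called adenines, joined from the overlapping contexts of the members, 5′ to 3′ in mm10.
Pcnx2, WT S, chr8:125826263-125826351, minus strand: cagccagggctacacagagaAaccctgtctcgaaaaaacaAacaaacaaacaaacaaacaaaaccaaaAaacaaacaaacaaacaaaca
Slu7, WT S, chr11:43438692-43438749, minus strand: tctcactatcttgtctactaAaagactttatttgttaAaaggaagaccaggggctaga
Garre1, KO S, chr7:34307076-34307159, minus strand: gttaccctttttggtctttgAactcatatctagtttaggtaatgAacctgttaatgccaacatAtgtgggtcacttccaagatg

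In the other named genes the members were as follows. Tsc22d1, which encodes a leucine zipper transcription regulator, had fractions of 17.6, 48.6 and 21.7% within 121 bases. Acoxl had 37.2, 27.5 and 40.9% within 128 bases, and Myo1d, which encodes an unconventional myosin, had 25.7, 38.2 and 36.0% within 59 bases, with 2 of these in a single run of 11 adenines. All 9 of these members were followed by adenine. Pdzd2 had fractions of 28.7 and 29.3% at adenines 2 bases apart in a run of 12, and a member of 34.2% farther off, at 12730535 on chromosome 15, that was followed by cytosine. Pcdh9, a protocadherin gene, had 49.6 and 26.5% at 2 sites 179 bases apart and 46.5% at a site farther off, at 93829630 on chromosome 14. Ska1, which encodes a spindle and kinetochore protein, had fractions of 0, 35.7 and 46.0% at coverage of 11 to 14, with 2 of its members in a run of at least 25 adenines. Edil3, which encodes an extracellular matrix protein, was the only one of the 11 without a member followed by adenine, with fractions of 0, 24.8 and 47.4%.

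Genes of 4 lists that matter in embryonic stem cells were looked up, with 5 kb on each side. Of all 49943 genes, 545 held a member between gene start and end, a smaller window than that of the listed genes. No member lay within 5 kb of 25 pluripotency genes or of 22 genes for enzymes of DNA and adenine methylation. Among 18 DNA damage response genes only Rad50, which encodes a subunit of the MRE11 complex at double-strand breaks, held a member, in WT S at 53678318 on chromosome 11 with a fraction of 23.2% (bounds 0 and 51.1%) at a coverage of 28. Among 25 imprinted genes only Gnas, which encodes a stimulatory G protein subunit, held a member, in WT S at 174308310 on chromosome 2 with a fraction of 12.3% (bounds 0 and 61.0%) at a coverage of 20. Both were CAA sites. Nearly fully modified sites numbered 1 at the pluripotency genes, 4 at the DNA damage response genes, 0 at the methylation enzymes and 2 at the imprinted genes. Nothing particular to a list can be read from these counts. The lists give called bases only, so a gene without a member may have lacked coverage.

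KO and WT were set side by side first for how often a site was partly modified. In L the share was 23.9% in KO and 22.7% in WT, and at like coverage the difference was -0.22 points (-4.17 to 3.74). In S it was 20.3% in KO and 25.9% in WT, and the plain difference of -5.64 points (-8.81 to -2.47) became -1.73 points at like coverage (-4.70 to 1.25). Neither matched interval left out 0. With 1 list per genotype and part, these intervals are over sites, and the spread between samples of a genotype is not known.

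The contexts of the members did differ between KO and WT in S. Guanine followed 28.3% of the 180 KO S members and 16.4% of the 627 WT S members, a difference of 11.9 points at like coverage (4.74 to 19.1). Adenine followed 54.4% of the KO S members and 65.2% of the WT S members, a difference of -11.05 points (-19.1 to -2.95). Runs of 4 or more adenines held 17.2% of the KO S members and 29.8% of the WT S members, a difference of -12.6 points (-19.2 to -6.03). GC content averaged 43.6% in KO S members and 39.0% in WT S members, a difference of 4.72 points (2.78 to 6.65). Tandem repeats were in 6.67% of the KO S and 11.5% of the WT S members, a difference of -4.71 points (-9.17 to -0.24). These are 5 of 11 features compared, no interval was widened for their number, and each genotype is a single list.

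The guanine, adenine and GC differences did not hold under every setting. With identification scores of 10 to 19 only, the guanine difference in S was 4.16 points (-5.57 to 13.9) and the adenine difference -7.55 points (-18.8 to 3.66). With modification scores of 30 or more, which left 17 KO S members, the GC difference was 5.01 points (-1.06 to 11.1). With 1 site per kb the adenine difference was -8.44 points (-17.6 to 0.68), and without runs of 4 or more adenines it was -7.70 points (-16.9 to 1.505).

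The nearly fully modified sites of the same lists differed between KO and WT as well. Guanine followed 24.8% of the KO S and 16.8% of the WT S nearly fully modified sites, a difference of 7.06 points at like coverage (1.88 to 12.3), and their GC content was 2.05 points higher in KO S (0.57 to 3.52). The guanine difference of the members exceeded that of the nearly fully modified sites by 4.83 points (-4.01 to 13.7), an interval that holds 0, and the GC difference exceeded it by 2.67 points (0.24 to 5.10). Thymine followed 35.9% of the KO S and 47.4% of the WT S nearly fully modified sites, -10.2 points (-16.3 to -4.12), and 8.89% of the KO S and 13.1% of the WT S members, -3.99 points (-8.82 to 0.85).

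In L no feature of the members differed between KO and WT beyond counting error. Guanine followed 13.4% of the 157 KO L and 14.7% of the 211 WT L members, a difference of -1.24 points (-8.22 to 5.75). Adenine followed 68.2% of the KO L and 72.0% of the WT L members, -4.05 points (-13.5 to 5.37), and GC content averaged 37.1% in both. With modification scores of 30 or more, which left 16 KO L and 22 WT L members, the adenine difference was -22.0 points (-43.5 to -0.43), and with upper bounds below 50% only, which left 12 KO L and 10 WT L members, the GC difference was 10.03 points (1.27 to 18.8). The KO minus WT difference of the members for guanine was 13.1 points larger in S than in L (3.13 to 23.1), and that for GC content was 4.75 points larger (1.41 to 8.08). In the nearly fully modified sites these values were 8.36 points for guanine (-0.39 to 17.1) and -0.55 points for GC content (-3.16 to 2.06). For thymine in L, the KO minus WT difference was 3.20 points in members (-2.97 to 9.38) and -8.18 points in nearly fully modified sites (-16.9 to 0.53), and the members' difference exceeded the other by 11.4 points (0.71 to 22.1). For adenine the S and L differences differed by -6.997 points (-19.4 to 5.42), an interval that holds 0.

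Between the DNA parts, the partly modified share was 20.3% in the KO S list and 23.9% in the KO L list. The KO S minus KO L difference was -4.67 points at like coverage (-8.54 to -0.79). In the WT lists the share was 25.9% in WT S and 22.7% in WT L, and the difference was -2.78 points at like coverage (-5.87 to 0.30). Each genotype and part is 1 list, so all intervals between the parts are over sites. A difference between libraries and a difference between DNA parts cannot be told apart. The WT interval left out 0 under 3 other settings, at -3.37 points with each coverage its own stratum (-6.42 to -0.32), -3.51 points with 1 site per kb (-6.74 to -0.27) and -3.29 points without sites listed at 0 (-6.31 to -0.27). The KO value did not hold under every setting: with fractions under 40% as the limit it was -2.51 points (-5.74 to 0.71), and without runs of 4 or more adenines it was -2.48 points (-6.47 to 1.51). Among members, adenine followed fewer S than L sites in both genotypes, by -13.6 points in KO (-23.9 to -3.35) and -9.07 points in WT (-16.2 to -1.95). The nearly fully modified sites showed no such difference beyond counting error, with -2.65 points in KO (-9.52 to 4.21) and 2.05 points in WT (-3.11 to 7.22). The S minus L difference for adenine of the members less that of the nearly fully modified sites was -10.95 points in KO (-23.3 to 1.39) and -11.1 points in WT (-19.9 to -2.33), and the WT interval alone left out 0. GC content was 6.39 points higher in KO S than in KO L members (3.67 to 9.11), which exceeded the same difference of the nearly fully modified sites by 6.52 points (3.07 to 9.96). In WT the GC difference between S and L members was 1.91 points (-0.051 to 3.87), which exceeded that of the nearly fully modified sites by 1.504 points (-0.99 to 3.998), and both intervals hold 0.

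In both sets the same base was rarely called in more than 1 list. Of the 1175 members 3 sites, at 2 bases, were also called elsewhere (0.26%, exact 95% interval 0.05 to 0.74%), and 0 of the 1619 nearly fully modified sites were, which allows a share of up to 0.23%. A call of another list within 100 bases was found for 17 members (1.45%) and 2 nearly fully modified sites (0.12%), and 11 of these 17 members had satellite words in their contexts. These shares were not matched on coverage, and the share over all called adenines is not given here. The lists hold called bases only, so a base absent from another list may have lacked coverage there. Both recurring bases carried such words and stood out by their coverage or contig. They are shown because no other member was seen in more than 1 list.
Chromosome 12 base, chr12:3109931-3109971, minus strand: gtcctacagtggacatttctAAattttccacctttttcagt
Unplaced contig base, chrUn_GL456392:23055-23095, minus strand: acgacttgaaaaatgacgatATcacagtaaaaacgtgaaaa

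The base at 3109951 on chromosome 12 was a member in KO S and in WT S. Its fraction was 6.9% in KO S (bounds 4.0 and 10.2%) and 5.3% in WT S (bounds 3.9 and 7.1%), and its IPD ratio was 1.34 in KO S and 1.35 in WT S. These were the highest coverages of any member, 1112 in KO S and 2027 in WT S. The base at 23075 on the contig GL456392 was a member in KO S, with a fraction of 9.8% (bounds 1.2 and 17.8%). It was also called in KO L at 18.9% (bounds 0.1 and 37.3%) and in WT S at 33.1% (bounds 20.7 and 46.8%), where identification scores of 28 and 76 put it outside the rule.

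The lowest fractions of all were listed at 0, and they looked different from the rest. The sites that the ranking by fraction named, 2 per list, were all of this kind, with IPD ratios of 1.51 to 8.27. For KO L the top one lay on chromosome 1 at 168994150 with an IPD ratio of 1.92, and for WT S the second lay on chromosome 1 at 186765618 with an IPD ratio of 8.27. Of these 8 sites 2 were followed by adenine. The 2 with the lowest and the highest IPD ratio are shown, both of WT S.
Lowest ratio, chr1:40220048-40220088, plus strand: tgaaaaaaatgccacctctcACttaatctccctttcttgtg
Highest ratio, chr1:186765598-186765638, minus strand: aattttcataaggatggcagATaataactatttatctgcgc

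In L the members of highest coverage lay on chromosome 4. The KO L site at 64497854 had a coverage of 95 and a fraction of 28.5% (bounds 15.8 and 41%). The WT L site at 64497840, 14 bases away on the same strand, had a coverage of 132. Its fraction was 40.5% (bounds 25.8 and 54.2%). The median coverage of members was 18 in KO L and 17 in WT L. Neither context carried satellite words, a check that finds exact 12-base words only.

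The next-base contrast was also found in calls that the rule left out. Among sites with an identification score under 6 outside the areas, adenine followed 58.9% of 721 with a fraction under 50% and 21.1% of 660 at 90% or more, 35.9 points more at like coverage (30.6 to 41.3). With identification scores of 20 or more it followed 57.1% of 238 with a fraction under 50% and 18.5% of 584 at 90% or more, 34.6 points more (26.7 to 42.6). Inside the excluded areas adenine followed 40.8% of 495 sites under 50% and 1 of 24 sites at 90% or more. Thymine followed 23.0% of the 495 and 62.5% (40.6 to 81.2%) of the 24. The contrast in the next base therefore was not particular to the identification range of 6 to 19. Whether the fraction estimate itself varies with the bases around a site was not tested.

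Of the whole data set, the lists held 3044 sites in KO L, 3862 in WT L, 3370 in KO S and 7142 in WT S, of which 354 to 544 per list lay in the excluded areas. A fraction was deposited at a coverage of 11 or more only, so 8799 of the 15793 sites outside the areas had one. The total depth of the lists is unknown, since they hold called bases only.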

How the data were processed

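DNA from H2A.X native chromatin immunoprecipitation was sequenced with single-molecule real-time sequencing, and the authors deposited 4 lists of called adenines, 1 per genotype and DNA part. The build is mm10, per the submitters' processing notes. Which caller, aligner and filters produced the lists, and how the replicates entered them, is not given in the sources used here. The deposited modification score and identification score are on the caller's own scale, with 20 the lowest modification score. The deposited IPD ratio is linear, the deposited coverage signal is not normalized, and the deposited fraction with its bounds runs from 0 to 1 and was printed in percent. No count of modified and unmodified reads is given, so the fraction was not tested as counts.

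Members and gene lists were chosen with earlier results of these data known. Shares have exact Clopper-Pearson intervals at 95%. Differences at like coverage are Mantel-Haenszel differences over lists and coverage strata (11 to 12, 13 to 15, 16 to 20, 21 to 30, 31 to 50, 51 or more), and GC content used a mean over the same strata. A difference of differences took both standard errors as independent. The intervals cover counting error only. In all, 17 features were compared between both sets, 11 between lists, and 9 KO minus WT differences between S and L, without adjustment. The code was tested on simulated data.

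Genes came from a RefSeq table of assembly GRCm38.p6, with 49943 genes. Named were the 12 genes with the most members (2 or more), ranked by members, members per kb and symbol, 2 members of the lowest fraction per list, members called in another list, the member of the highest coverage per list, and members within 5 kb of listed genes. A gene that this rule named is not reported here. Sites of an upper bound above 0, adenine and thymine steps, runs and repeats were added after the values were seen. Sequences are the deposited contexts, and none from chromosome 18 is printed. Python 3.11.15, numpy 2.4.6, pandas 2.3.3, scipy 1.17.1 and matplotlib 3.10.9 were used.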

Additional observations from a re-analysis of the deposited data

Results flagged for a closer look

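In partly modified sites a pair of differences between groups was flagged. The KO minus WT difference in the share followed by guanine was 11.9 points in S and -1.24 points in L, so that the S difference exceeded the L difference by 13.1 points (3.13 to 23.1). The KO minus WT difference in GC content was 4.72 points in S and -0.03 points in L, so that the S difference exceeded the L difference by 4.75 points (1.41 to 8.08). In the nearly fully modified sites the S difference for guanine exceeded the L difference by 8.36 points (-0.39 to 17.1), an interval that holds 0. For GC content their value was -0.55 points (-3.16 to 2.06). Within S, the members' guanine difference exceeded that of the nearly fully modified sites by 4.83 points (-4.01 to 13.7), and the GC difference by 2.67 points (0.24 to 5.10). Both flagged differences are among 9 such differences of differences and were not adjusted for that number. Each genotype and part is 1 list, so a difference between libraries and a difference between genotypes cannot be told apart.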

How the results depend on the processing

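No paired analysis was possible because the 2 replicates of each group share 1 list and cannot be separated. Of 242 alternative values over 17 results, 213 kept their sign. Counted apart from that, 186 stayed on the same side of the interval test without a marked change in size, and these include values near 0 whose sign changed. All values are percentage points.

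For the partly modified share, KO minus WT was 4.30 in L at coverage 15 to 30 and -5.64 in S with no match on coverage. S minus L in WT was -3.37 with each coverage its own stratum, -3.51 with 1 site per kb and -3.29 without sites listed at 0, with intervals that left out 0, and 3.19 with no match on coverage. S minus L in KO was -9.14 at coverage 15 to 30, -4.12 with scores of 30 or more, -2.51 with fractions under 0.4, -3.57 with no match, -0.45 with upper bounds below 0.5 only and -2.48 without runs of 4 or more adenines.

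Between partly and nearly fully modified sites, leaving out each list in turn gave 42.3 to 46.8 for following adenine, -35.3 to -32.96 for thymine, 0.13 to 2.29 for guanine, 18.7 to 21.2 for runs, 0.63 to 3.97 for a call within 10 bases, -0.87 to 2.23 for genes and -1.44 to -0.051 for GC content. Against all sites of fraction 0.5 or more, the values were 33.3 for adenine, -20.2 for thymine, -2.25 for guanine and -2.07 for GC content. With upper bounds below 0.5 and fractions above 0 only, which left 97 members, they were 53.6 for adenine, -46.3 for thymine, 5.73 for guanine, 29.7 for runs and 18.8 for a call within 10 bases. Without runs of 4 or more adenines they were 35.7 for adenine, 6.98 for guanine (2.96 to 10.99), -1.26 for a call within 10 bases and 2.05 for GC content. With scores of 30 or more they were 50.4 for adenine, -38.9 for thymine, 11.5 for a call within 10 bases, -10.7 for genes and -3.27 for GC content. With identification scores of 10 to 19 they were 48.7 for adenine, 25.98 for runs and -1.97 for GC content. For a call nearby, the values were 2.35 with each coverage its own stratum, 3.24 at coverage 15 to 30, 1.49 with 1 site per kb, 7.70 with no match, 0.53 within 5 bases and 9.45 within 50 bases.

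Among partly modified sites, KO minus WT in S for guanine was 15.98 with scores of 30 or more (-5.03 to 37.0). It was 4.16 with identification scores of 10 to 19 and 45.6 with upper bounds below 0.5 only. In S, scores of 30 or more left 17 KO and 79 WT sites, and upper bounds below 0.5 only left 13 KO and 62 WT sites. For adenine in S it was -24.5, -7.55 and -49.8 under the same settings, -8.44 with 1 site per kb and -7.70 without runs. For GC content in S it was 5.01 with scores of 30 or more and 9.65 with upper bounds below 0.5 only. In L, upper bounds below 0.5 only gave 21.3 for guanine, -25.7 for adenine and 10.03 for GC content, from 12 KO and 10 WT sites, and scores of 30 or more gave -21.99 for adenine and 6.90 for GC content. The causes of these changes were not tested. A coverage of 11 to 20 at most sites leaves the fraction with wide bounds.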
